A study of Mus musculus with 16 samples.

Results

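The genes of the 4 mouse Hox clusters were read through 50 probes, out of 41173 probes on the array that are not controls. The rule goes by name: a probe counted if the array calls its gene Hox followed by a cluster letter (a, b, c or d) and a number. The 50 probes stand for 38 genes, of 29273 gene names on the array, and 12 of the genes have 2 probes. Cluster a has 14 probes for 11 genes, cluster b 15 for 10, cluster c 9 for 8 and cluster d 12 for 9. The RefSeq table used here lists 39 Hox genes, and Hoxc11 is the gene with no probe under the rule.

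The arrays compared GABAergic neurons, sorted for eGFP from GAD67-eGFP mice on a C57Bl/6 background at postnatal day 1, with total brain RNA. The 5 groups were sorted cells of whole brain (4 arrays), and of olfactory bulb, cortex, striatum or cerebellum, with 3 arrays for each region. Whole brain cells came, per the labels, from 4 mice, and the 4 regions were dissected from the brains of 6 mice. The common reference on each of the 16 arrays was whole brain RNA of 4 age-matched mice whose genotype the labels do not give, amplified like the sorted cells. The labels name no treatment beyond dissociation and sorting, and they do not say which animals stand behind each array or whether regions share animals. GAD67 is the enzyme that makes GABA, encoded by Gad1, so the sort marks cells by activity of that gene. Whole brain includes the hindbrain, and of the 4 dissected regions only the cerebellum derives from it.

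Hox genes encode homeodomain transcription factors that give cells a position along the axis from head to tail. Their order along each cluster matches their order of expression along the body: genes with low numbers, at one end of a cluster, act in the hindbrain, and genes with high numbers act in the trunk, the tail and the limbs. In the developing nervous system Hox genes are known from the hindbrain and spinal cord, while the forebrain, the midbrain and the cerebellar territory are known for lacking them. Retinoic acid signalling turns the low-numbered genes on, Polycomb complexes keep the clusters silent elsewhere, and Pbx and Meis proteins bind DNA together with Hox proteins.

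RefSeq promoters of GRCm38.p6 were at hand for 22 of the 38 genes, as 24 entries. The 250 bases before the start are shown for Hoxa5 and Hoxa9, which lie near each other in cluster a and moved in opposite directions between cerebellum and forebrain, with each CG in capitals. Both lie on the minus strand, Hoxa5 at chr6:52204588-52204837 and Hoxa9 at chr6:52227371-52227620.
Hoxa5: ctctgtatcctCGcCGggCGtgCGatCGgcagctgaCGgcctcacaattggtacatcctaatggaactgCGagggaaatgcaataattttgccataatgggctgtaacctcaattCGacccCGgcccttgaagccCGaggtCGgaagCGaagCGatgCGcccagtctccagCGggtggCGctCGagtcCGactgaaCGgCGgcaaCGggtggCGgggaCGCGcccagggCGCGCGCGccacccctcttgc
Hoxa9: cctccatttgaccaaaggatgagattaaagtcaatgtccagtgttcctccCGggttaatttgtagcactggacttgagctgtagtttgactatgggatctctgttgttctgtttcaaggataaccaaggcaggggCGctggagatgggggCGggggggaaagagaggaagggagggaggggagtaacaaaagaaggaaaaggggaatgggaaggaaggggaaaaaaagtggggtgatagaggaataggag
The Hoxa5 stretch holds 28 CG and the Hoxa9 stretch holds 3, against a median of 12.5 over the 24 Hox entries (lowest 2, highest 35) and a median of 6 over 32536 distinct promoter stretches of all genes. Hoxa2, one of the probes that differed most between whole brain and the regions, is shown with its match to TGATNNAT, an element that Hox and Pbx proteins can bind together, in capitals. It lies at chr6:52164832-52165081 on the minus strand, and the match begins 111 bases before the start.
Hoxa2: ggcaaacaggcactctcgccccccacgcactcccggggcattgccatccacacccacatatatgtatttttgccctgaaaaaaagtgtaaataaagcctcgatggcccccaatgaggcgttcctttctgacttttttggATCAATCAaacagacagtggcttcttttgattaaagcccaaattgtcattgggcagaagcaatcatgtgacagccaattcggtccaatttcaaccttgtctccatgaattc
Searched on both strands, TGATNNAT was found in 4 of the 24 Hox entries and in 7.66% of all promoter stretches, and the homeodomain core TAATTA in 2 of 24 and in 4.84%. Neither was found in the Hoxa5 and Hoxa9 stretches. These matches describe letters in a window only.

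Across the arrays, the scanner software flagged 78.1% to 96.6% of spots that are not controls as well above background for sorted cells, and 72.1% to 90.7% for the reference. Negative control spots carried that flag in 0 to 1.91% and in 0.637% to 7.01% of cases. Dyes were not swapped, so a dye effect specific to a probe and a difference between sorted cells and reference cannot be told apart. All groups share that dye orientation. All whole brain arrays were scanned on 1 day and all regional arrays on another. Of the markers, Lhx5, a factor of cerebellar inhibitory neurons, was higher in cerebellum than in the 3 forebrain regions by 4.36 ± 0.12 (SE) on the log2 scale. Both Gad1 probes were higher than reference in all 4 regions (0.79 to 1.27), but lower in the arrays labelled whole brain. There they stood at -1.32 ± 0.08 and -1.51 ± 0.08, below the reference on 4 of 4 arrays. The Gad2 probes, for the second GABA-making enzyme, stood at 1.38 and -0.28 in whole brain, and that of the vesicular GABA transporter Slc32a1 at 1.21. The whole brain group therefore goes against its label by Gad1, and results on it are given apart from those on the regions.

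Hox probes were detected in every group. On every array of the group, 40 of 50 Hox probes were well above background in whole brain (80% against 83.4% of all probes), 33 in olfactory bulb (66% against 79.0%) and 33 in cortex (66% against 77.8%). In striatum 41 were (82% against 87.0%), and in cerebellum 43 (86% against 90.1%). The reference channel detected 29 on all 16 arrays (58% against 64.8%). These are counts of probes above local background and do not measure which transcripts bound.

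**Figure D1:**
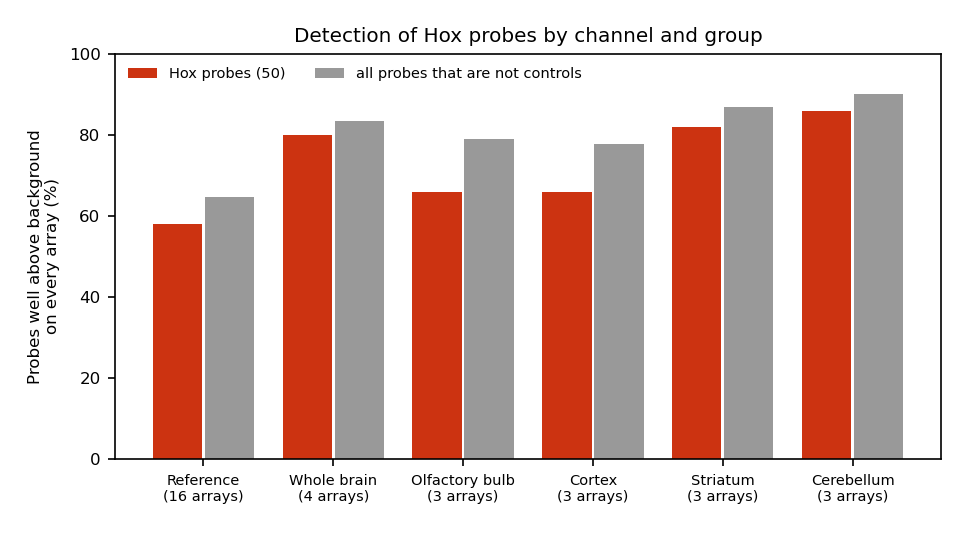
Percent of probes well above background on every array, for the reference channel (16 arrays) and for sorted cells of each group (3 or 4 arrays). Red bars are the 50 Hox probes and grey bars all probes that are not controls; the red bar is the shorter in each pair, by the least in whole brain (80% against 83.4%).

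Of the 20 probes for genes numbered 1 to 5, those known from the hindbrain, 12 were detected on all 16 arrays in the sorted channel. Of the 10 probes for genes 6 to 8, 5 were, and of the 20 for genes 9 to 13, known from the trunk and limbs, 14 were, beside 62% of all Hox probes and 72.5% of all probes on the array. The least detected was Hoxd11, which was well above background on 1 whole brain array of 16 in the sorted channel and on 0 of 16 in the reference. Hoxb8 (A_51_P402686) and Hoxb3 (A_52_P312467) were also on 0 arrays in the reference. With the 99th percentile of negative control spots in place of the flag, the reference count fell to 14 of 50.

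Before testing, probes had to be well above background on at least 3 arrays in the sorted channel or 8 in the reference, which 47 of the 50 Hox probes (37 genes) and 39226 probes in all met. Hoxd11 and 1 probe each of Hoxa4 and Hoxd3 did not. Another 8 passed through the sorted channel alone, which favours a higher call: Hoxb1, Hoxb3 (A_52_P312467), Hoxb7, Hoxb8 (A_51_P402686), Hoxc8, Hoxc13, Hoxd1 and Hoxd8. A probe is called below where limma's adjusted p was under 0.05, and a ratio is the log2 of sorted cells over reference, so 1 is a doubling. In such bulk samples, fewer cells of a type and less RNA per cell cannot be told apart. The labels call the replicates biological without naming the animals behind each, so p-values measure the spread between these samples, part of which may be technical.

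Against the reference, most Hox probes had small ratios and a few had large ones. In whole brain 32 of 47 were called, 28 higher and 4 lower, where 79.3% of all tested probes were called, 41.2% higher and 38.1% lower. The Hox median was 0.25 and that of all probes 0.04. Centring arrays on their median in place of loess gave 27 higher and 10 lower. Of the 39 Hox probes that passed through the reference channel, 25 were higher and 4 lower.

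In olfactory bulb 21 were called (11 higher, 10 lower; 67.4% of all probes called, 34.6% higher and 32.8% lower), with a median of 0.00 against 0.01. With median centring 36 were called, 17 higher and 19 lower. In cortex 27 were called, 18 higher and 9 lower, beside 68.3% of all probes (34.8% higher, 33.6% lower), with a median of 0.02 against 0.01. In striatum 32 were called, 18 higher and 14 lower, beside 67.4% (34.1% and 33.3%), with a median of 0.11 against 0.01. In cerebellum 29 were called, 20 higher and 9 lower, beside 75.3% (38.8% and 36.4%), with a median of 0.13 against 0.03. Of the 47 Hox probes, 8 were called higher by 2-fold in cerebellum (6.81% of all probes), 7 in whole brain (7.49%) and 6 in cortex (5.04%). In striatum 5 were (3.14%) and in olfactory bulb 2 (5.49%). The share among Hox probes was larger than that of all probes except in olfactory bulb. Called lower by 2-fold was 1 in cortex, Hoxd9 (7.97%), and 0 in the other groups, where 14.7%, 8.16%, 6.21% and 8.95% of all probes were, from whole brain to cerebellum. Median Hox ratios lay within 0.25 of 0 in each group, and the 5 comparisons share the same reference RNA.

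**Figure D2:**
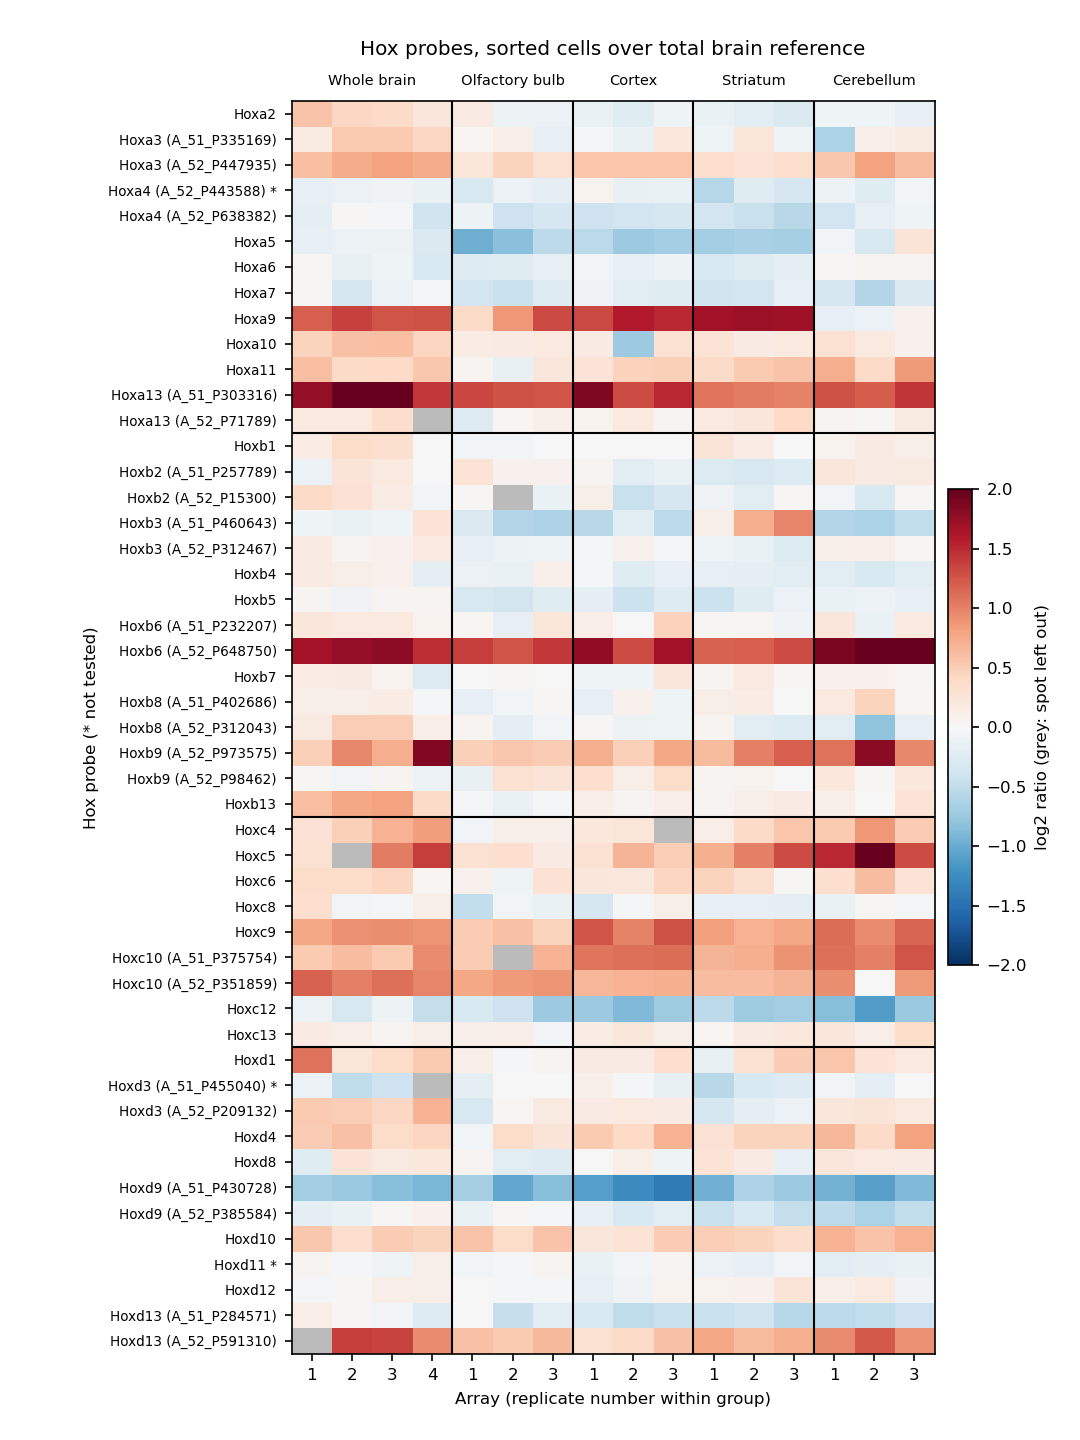
Log2 ratio of sorted cells over reference for 49 Hox probes (rows, by cluster and number) on the 16 arrays (columns, by group); red is higher and blue lower in sorted cells, and grey marks a spot left out. Rows such as Hoxb6 (A_52_P648750) and Hoxa13 (A_51_P303316) are red on all arrays, Hoxd9 (A_51_P430728) is blue on all, and Hoxa9 is red outside the cerebellum.

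The same 10 probes were called higher in all 5 groups, among them Hoxa3 (A_52_P447935), Hoxa13 (A_51_P303316), Hoxb6 (A_52_P648750), Hoxb9 (A_52_P973575), Hoxc9, both probes of Hoxc10, Hoxd10 and Hoxd13 (A_52_P591310). Lower in all 5 were 2, Hoxc12 and Hoxd9 (A_51_P430728). Of all tested probes, 18.0% were higher in all 5 groups and 19.2% lower. Hoxb7, Hoxd8 and Hoxd12 were called in no group. Of the 10 probes higher in all groups, 7 are for genes numbered 9 to 13, which pattern the trunk and limbs, as are 19 of the 47 tested. Both Hoxc10 probes are among the 7. The 2 probes lower in all groups are for genes of this range as well. The other probes of Hoxa13, Hoxb9 and Hoxd13 were not higher in all groups.

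Among the hindbrain genes, numbered 1 to 5, the median whole brain ratio was 0.30 over the 18 probes tested. Of these, 12 were called higher and 1 lower, beside 41.2% and 38.1% of all probes. Hoxb1, Hoxb3 (A_52_P312467) and Hoxd1, among those higher, passed the filter through the sorted channel alone, which favours a higher call. Hoxb1, which specifies facial motor neurons, was well above background on 3 of 4 whole brain arrays and 1 of 12 regional arrays, and on 1 of 16 in the reference. Its whole brain ratio, 0.21, is therefore against a signal measured on 1 array, and turned to -0.38 with median centring. Hoxb2, downstream of it, had mean ratios from -0.29 to 0.19 over both probes and all groups. Hoxb4 and Hoxb5, genes of the rear hindbrain, were lower than reference in striatum (-0.19 and -0.26). Hoxb4 was also lower in cerebellum (-0.25), and Hoxb5 in olfactory bulb (-0.31) and cortex (-0.29). With median centring Hoxb4 turned to 0.09 in striatum and changed direction in cerebellum too. In whole brain Hoxb4 and Hoxb5 stood at 0.05 and 0.02, which was not called.

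Of the genes numbered 6 to 8, only Hoxb6 (A_52_P648750) exceeded a ratio of 1 in any group. It stood at 1.67, 1.76, 1.79 and 1.47 in whole brain, 1.38, 1.26 and 1.41 in olfactory bulb, 1.77, 1.31 and 1.68 in cortex, 1.18, 1.20 and 1.31 in striatum, and 1.89, 2.32 and 2.03 in cerebellum. All 16 values lay above 1, and the 3 cerebellar ones were above the other 13. Hoxb6 acts in trunk mesoderm and limb, and its other probe (A_51_P232207) did not exceed a mean ratio of 0.20. Hoxa7, a gene of the trunk, was lower than reference in all 4 regions, from -0.18 to -0.40.

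Of the genes numbered 9 to 13, Hoxa13, a gene of the limb end and hindgut, had the highest mean whole brain ratio of all Hox probes tested, at 1.82 ± 0.29 (SD, n = 4). Its first probe (A_51_P303316) gave 1.76, 2.06, 2.02 and 1.42 there, and group means of 1.28, 1.56, 1.03 and 1.30 in olfactory bulb, cortex, striatum and cerebellum. The other Hoxa13 probe (A_52_P71789) stood at 0.25, -0.04, 0.11, 0.28 and 0.09 from whole brain to cerebellum. Hoxc9 and Hoxc10, which assign motor neurons of the thoracic and lumbar cord, had mean ratios of 0.51 to 1.17 and, over both Hoxc10 probes, 0.60 to 1.12. Hoxd9 (A_51_P430728) was below the reference on 16 of 16 arrays, with group means of -0.80, -0.85, -1.26, -0.76 and -0.97 from whole brain to cerebellum. Hoxc12 was also below on every array, from -0.25 in whole brain to -0.90 in cerebellum. Hoxb9 (A_52_P973575) was not well above background in the reference on any olfactory bulb or cortex array, so its fold there is a bound: at least 1.42-fold and at least 1.58-fold higher, beside fitted means of 0.50 and 0.66. Bounds set brighter signals against the higher of the dim signal and the lowest detected one on each array.

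Pairs of probes for the same gene often differed. Among 10 genes with both probes tested, giving 50 pairs of gene and group, the calls were the same in 19, 14 of them with both probes called in 1 direction. In 25 pairs 1 probe was called and the other was not, and in 6 they were called in opposite directions. Hoxd13, a gene of the digits, made up 4 of these 6: in the regions 1 probe (A_52_P591310) stood at 0.58, 0.42, 0.71 and 1.03, and the other (A_51_P284571) at -0.23, -0.42, -0.47 and -0.48. Hoxb3 in striatum and Hoxb8 in cerebellum made up the other pairs, each with 1 probe (A_52_P312467, A_51_P402686) not well above background in the reference on any array. With median centring that Hoxb8 probe turned from 0.22 to -0.17. Only Hoxc10 had both probes called the same way in all 5 groups. In 5 genes the means of both probes were at least 1 apart in some group, with Hoxb6 the widest at 1.99. The sequences of the probes were not used here, so which transcripts each binds was not tested.

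**Figure D3:**
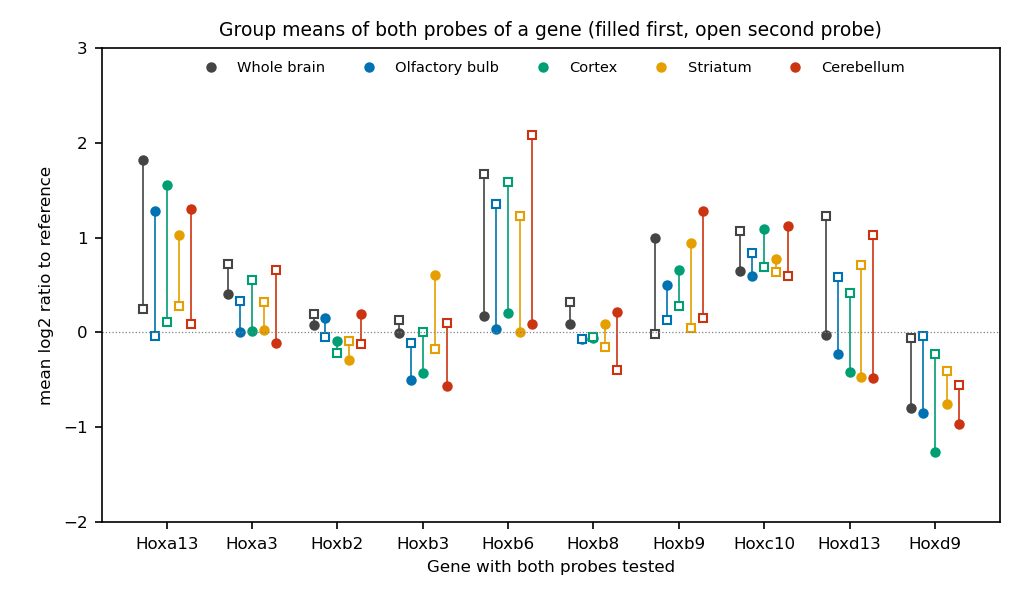
Mean log2 ratio to reference of both probes of the 10 Hox genes with 2 tested probes, by group (colour); filled circles are the probe whose identifier comes first in alphabetical order, open squares the other, joined by a line. Long lines at Hoxa13, Hoxb6, Hoxb9, Hoxd9 and Hoxd13 show gaps of 1 or more, and those of Hoxd13 cross 0.

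The cerebellum, the one dissected region that derives from the hindbrain, was compared with the 3 forebrain regions. Here 23 of 47 Hox probes were called, 18 higher in cerebellum and 5 lower, where 40.5% of all probes were called, 21.3% higher and 19.2% lower. Of the 39 that passed through the reference channel, 16 were higher and 5 lower. The Hox median difference was 0.12 and that of all probes 0.02. Without cerebellum replicate 1 the count was 14, and without cerebellum replicate 2 it was 15. In a fit of the 12 regional arrays alone it was 22. The scanner software's own log ratio gave 13, and the sorted channel alone 12, 10 of them higher. By number, 9 of 18 probes for genes 1 to 5 were higher and 1 lower, 3 and 1 of 10 for genes 6 to 8, and 6 and 3 of 19 for genes 9 to 13.

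**Figure D4:**
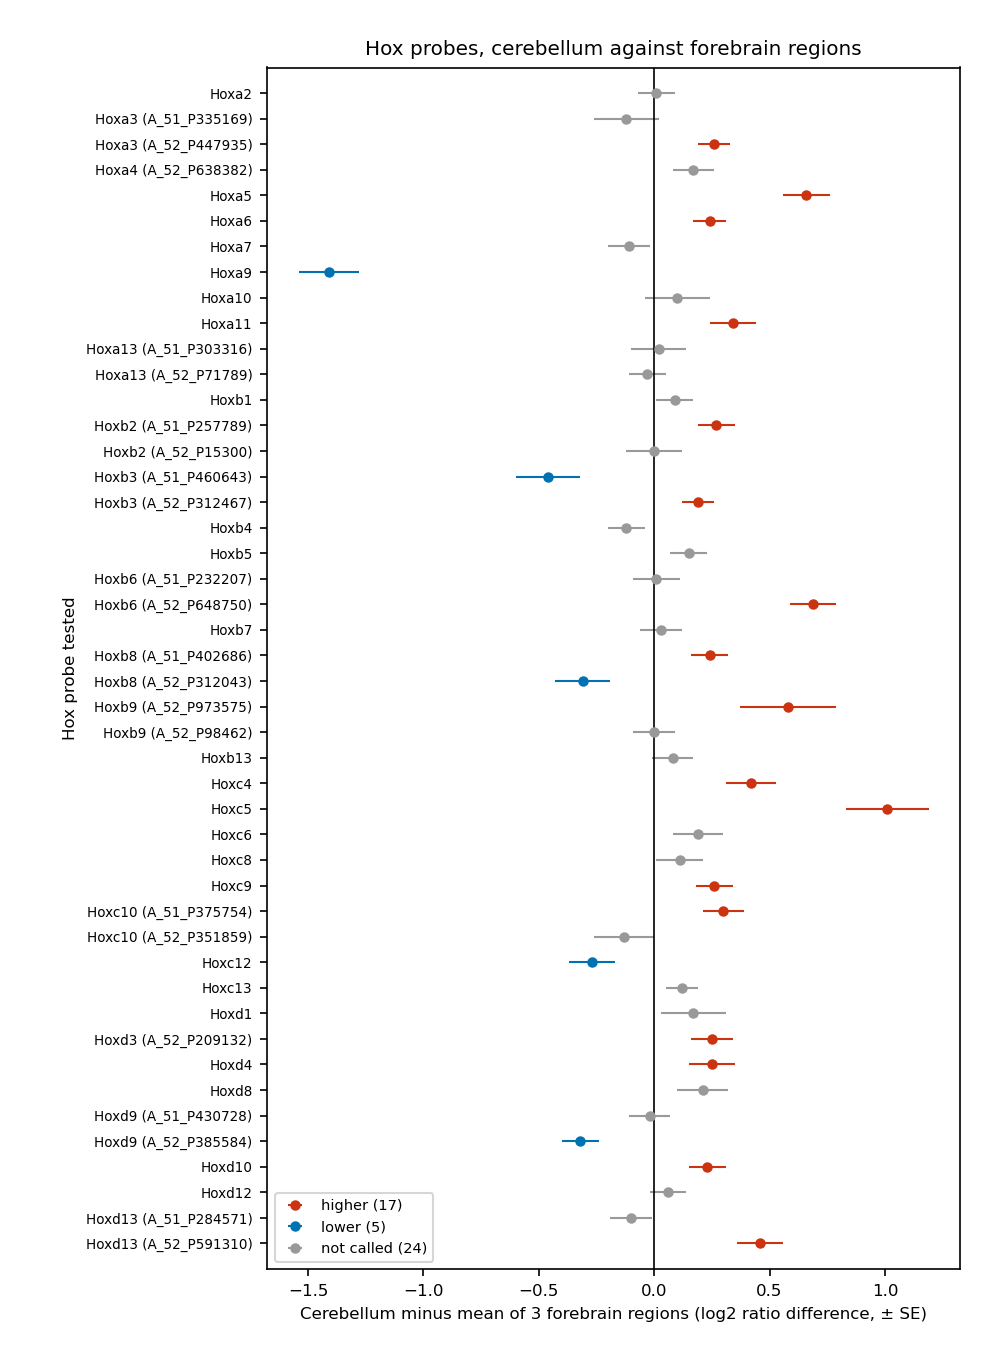
Difference in log2 ratio between cerebellum and the mean of olfactory bulb, cortex and striatum for 46 tested Hox probes; points are limma estimates, bars SE, and colours the calls (17 of those shown higher, 5 lower, 24 not called). Hoxa9 stands alone at -1.41, and Hoxc5 is highest at 1.01.

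Hoxa9, a gene of the trunk that also acts in blood stem cells, showed the largest difference, with a cerebellar mean below that of the forebrain by 1.41 ± 0.13 on the log2 scale, or 2.66-fold (adjusted p = 6.816e-08, limma). Its ratios were -0.16, -0.12 and 0.08 in cerebellum, 0.38, 0.86 and 1.32 in olfactory bulb, 1.32, 1.58 and 1.50 in cortex, 1.68, 1.73 and 1.69 in striatum, and 1.20, 1.37, 1.26 and 1.28 in whole brain. Cerebellum did not overlap any other group, and olfactory bulb varied most. In the sorted channel alone the difference was -1.15, with 1 olfactory bulb array (9.57, log2 signal) below the cerebellar ones (10.08, 10.10 and 10.22). It was the 1 Hox probe called lower in cerebellum by 2-fold or more, as were 0.540% of all probes.

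Hoxa5, which patterns the neck and the lung and is active in the rear hindbrain, went the other way and was higher in cerebellum by 0.66 ± 0.10 (adjusted p = 5.46e-05, limma). Its ratios were -0.06, -0.32 and 0.25 in cerebellum and lay between -0.98 and -0.53 on the 9 forebrain arrays, with no overlap. Whole brain, at -0.17, -0.12, -0.10 and -0.29, overlapped cerebellum. The difference stood mostly in the sorted channel, at 0.85 against 0.20 in the reference. In that channel the probe was well above background on 2 of 3 olfactory bulb and 2 of 3 cortex arrays and on all others.

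Hoxc5, a gene of the neck and upper trunk, had the highest difference, at 1.01 ± 0.18 (adjusted p = 0.0002054, limma), and was the 1 Hox probe called higher by 2-fold, as were 0.640% of all probes. Ratios were 1.50, 1.99 and 1.30 in cerebellum, 0.31, 0.33 and 0.16 in olfactory bulb, 0.31, 0.68 and 0.49 in cortex, and 0.71, 1.01 and 1.31 in striatum. Cerebellum overlapped the third striatal array. The reference channel, which holds the same RNA on every array, also differed for this probe, by 1.20 against 2.21 in the sorted channel, and its normalized log2 signal ran from 7.12 to 9.42. The spread of the reference over the 16 arrays had an SD of 0.79 for Hoxc5, the widest of the tested Hox probes, whose median SD was 0.23.

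Hoxb6 (A_52_P648750) was higher in cerebellum by 0.69 ± 0.10 (adjusted p = 2.911e-05, limma) and Hoxb9 (A_52_P973575) by 0.58 ± 0.21 (adjusted p = 0.03189, limma). The Hoxb9 reference was not well above background on any olfactory bulb or cortex array. Its ratios there are lower bounds, so this difference may be overstated. Hoxd13 (A_52_P591310) was higher by 0.46 ± 0.10, or by 0.16 with median centring, where it was not called. The log2 reference signal of that probe ran from 7.78 to 10.68 over the arrays (SD 0.76), the widest range of the tested Hox probes. Next to Hoxa9, the probes lower in cerebellum were Hoxb3 (A_51_P460643, -0.46), Hoxd9 (A_52_P385584, -0.32), Hoxb8 (A_52_P312043, -0.31) and Hoxc12 (-0.27). For these Hoxb3, Hoxb8 and Hoxd9 probes, and for Hoxd4 and Hoxd10, the reference channel differed more than the sorted channel. Hoxd4 (0.25) and Hoxd10 (0.23) turned to -0.01 and -0.04 in the sorted channel alone. The other Hoxb6 probe (A_51_P232207) had means of 0.04, 0.20 and 0.00 in olfactory bulb, cortex and striatum and 0.09 in cerebellum. In that order, the other Hoxb9 probe stood at 0.13, 0.28, 0.05 and 0.15, and the other Hoxd13 probe at -0.23, -0.42, -0.47 and -0.48. Among the regions, the other probes of Hoxb3 and Hoxb8 had their highest means in cerebellum (0.10 and 0.22). The other Hoxd9 probe stood at -0.97 there (-1.26 in cortex, -0.76 in striatum). Groups did not overlap for 7 Hox probes, where 21.0% of all probes did not: Hoxa5, Hoxa6, Hoxb6, Hoxd3 and Hoxd13 were higher, Hoxa9 and Hoxd9 lower. Of the 23 calls, 5 held under every alternative run, among them those of Hoxa5, Hoxa9, Hoxb6 and Hoxc5.

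**Figure D5:**
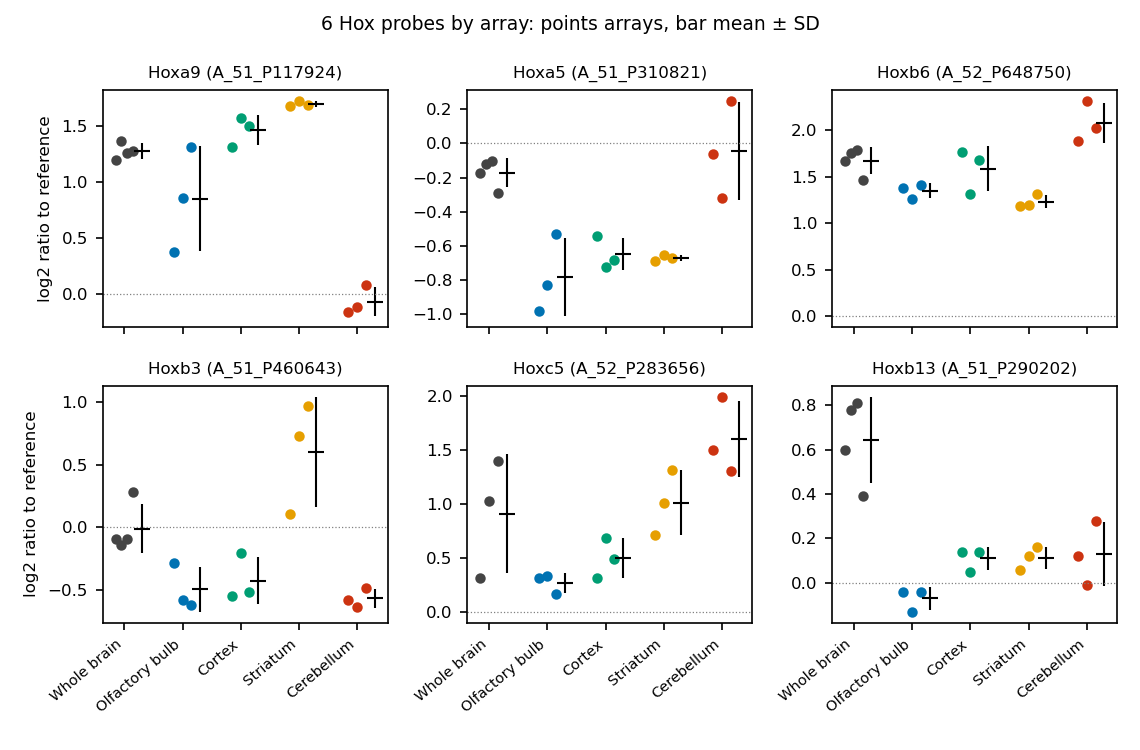
Log2 ratio to reference by array for 6 Hox probes; points are arrays, and the horizontal tick with its bar is the group mean ± SD (4 whole brain arrays, otherwise 3). The vertical scale differs between panels. Hoxa9 is near 0 in cerebellum, Hoxa5 is near 0 in cerebellum and below -0.5 in the forebrain regions, Hoxb3 is above 0 in striatum, and Hoxb13 is above 0.3 in whole brain.

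Over the 4 regions, 22 of 47 Hox probes differed by limma's moderated F test, beside 55.9% of all probes. The cerebellum had the highest mean for 15 of them and the striatum for 3. Hoxb3 (A_51_P460643), a gene of the rear hindbrain, was the clearest case outside the cerebellum (adjusted p = 2.826e-05). Its ratios were 0.11, 0.73 and 0.97 in striatum, -0.29, -0.58 and -0.62 in olfactory bulb, -0.55, -0.21 and -0.52 in cortex, and -0.58, -0.64 and -0.49 in cerebellum. Striatum was the one region above the reference, with no overlap but with the widest spread. The second Hoxb3 probe went the other way, with its lowest mean, -0.17, in striatum, and was not well above background there on any array. Hoxc9 also differed, with 1.25, 0.99 and 1.28 in cortex against 0.50, 0.58 and 0.44 in olfactory bulb.

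Whole brain, the one group that holds the rest of the hindbrain, was compared with the mean of the 4 regions. Of 47 Hox probes 24 were called, 23 higher in whole brain and 1 lower (Hoxc10, A_51_P375754), where 62.7% of all probes were called, 29.9% higher and 32.9% lower. The other Hoxc10 probe (A_52_P351859) was among those higher (0.37). Of the 39 Hox probes that passed the filter through the reference channel, 20 were higher and 1 lower. The median Hox difference was 0.19 and that of all probes 0.00. No Hox difference reached 2-fold, which 3.13% of all probes did upwards and 7.41% downwards. Scan day and group cannot be told apart in this comparison, and Gad1 goes against the whole brain label, as given above. The median difference of the Hox probes was 0.21 in the sorted channel and -0.05 in the reference channel.

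Hoxb13, a gene of the tail end and prostate, and Hoxa2, which patterns the front hindbrain, differed most clearly. Hoxb13 stood at 0.60, 0.78, 0.81 and 0.39 in whole brain and between -0.13 and 0.28 on the 12 regional arrays, a difference of 0.57 ± 0.07 (adjusted p = 1.09e-06, limma). Hoxa2 stood at 0.57, 0.41, 0.38 and 0.23 in whole brain and between -0.29 and 0.16 in the regions, a difference of 0.53 ± 0.07 (adjusted p = 1.595e-06). Neither overlapped the regions in ratio, but both did in the sorted channel. There the log2 signal of Hoxb13 was 11.18 to 11.75 in whole brain and up to 11.43 in the regions. That of Hoxa2 was 7.70 or more in whole brain and up to 7.71 in the regions. The Hoxb13 reference stood at 10.57, 10.59, 10.46 and 11.36 on whole brain arrays and between 10.66 and 11.28 on the others. Both calls held under every alternative run, the sorted channel alone included. Hoxd3, a gene of the rear hindbrain and neck, was higher by 0.49 ± 0.08 (A_52_P209132), with 0.53, 0.49, 0.41 and 0.69 in whole brain against at most 0.26 in the regions. The other Hoxd3 probe, which failed the filter, had means of -0.34 in whole brain and -0.07, -0.02, -0.37 and -0.09 from olfactory bulb to cerebellum. In all, 7 Hox probes did not overlap between whole brain and regions, where 30.4% of all probes did not, and all 7 were higher in whole brain. By number, 11 of 18 probes for genes 1 to 5 were higher, 3 of 10 for genes 6 to 8 and 9 of 19 for genes 9 to 13. Beside these, 29.9% of all probes were higher. Of the Hox probes higher, 3 had passed the filter through the sorted channel alone, and the split by number includes them. For Hoxa7, Hoxa13 (A_51_P303316) and Hoxc4 the reference channel differed more than the sorted channel, and Hoxa7 turned to -0.15 in the sorted channel alone.

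Of 9 genes for cofactors (Pbx, Meis and Pknox families), 0 were higher in cerebellum than in forebrain and 7 lower, beside 21.3% and 19.2% of all probes, Pbx3 at -1.60 ± 0.08 and Meis2 at -1.35 ± 0.08 among them. Meis3, known with Hox genes in the hindbrain, did not pass the test (-0.01 ± 0.07, adjusted p = 0.9313, limma). In whole brain against the regions 1 cofactor gene was higher and 6 were lower, beside 29.9% and 32.9% of all probes. Among 14 Polycomb genes, 0 were higher in cerebellum and 10 lower, including Ezh2 at -0.43 ± 0.07, which writes the silencing mark, and Cbx7 at -0.50 ± 0.11. In whole brain against the regions, 2 of the 14 were higher and 10 lower.

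Beside the counts that follow, 21.3% of all probes were higher in cerebellum and 19.2% lower, and in whole brain against the regions 29.9% and 32.9%. Of 15 tested regulators of Hox genes, 5 were higher in cerebellum and 2 lower. Those higher included Rarb (0.46) and Rarg (0.27), receptors of retinoic acid, Aldh1a2 (0.22), which makes it, and Cyp26b1 (0.68), which breaks it down. Rara, another of its receptors, was lower (-1.02). Of 12 tested genes beside the clusters, 3 were higher, Skap1, Skap2 and Calcoco1, and 1 lower, Mtx2; Evx1 and Evx2, the homeobox genes at the cluster ends, did not pass (0.06 and 0.05). In whole brain against the regions, 1 regulator was higher and 5 lower, Rara (-0.82), Rarb (-0.29) and Rarg (-0.21) among them. Of the genes beside the clusters 2 were higher and 7 lower there. Of 13 other homeobox genes of forebrain and cerebellum, ParaHox genes included, 10 were higher in cerebellum and 0 lower, and in whole brain 1 was higher and 5 lower.

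Markers of other cells also differed, and are given against the same shares of all probes. In cerebellum against forebrain, 11 of 12 markers of midbrain, hindbrain and spinal inhibitory neurons were higher and 0 lower, among them Lbx1 (1.50) and Tal1 (1.81). In whole brain against the regions 3 were higher and 3 lower, with Lhx5 at 0.84 and Gata3 at -0.51. Of 8 markers of other hindbrain neurons, 4 were higher and 1 lower in each comparison, with Isl1 the lower one (-0.83 and -0.36). Of 6 markers of microglia and blood cells, 3 were higher in cerebellum and 5 in whole brain, and 0 were lower in either, with Csf1r at 0.74 and 0.86. Of 4 erythroid markers 1 and 3 were higher and 0 lower. Of 7 endothelial and mural markers, 0 were higher and 2 lower in cerebellum, and 2 higher and 0 lower in whole brain. Of 8 markers of meninges and choroid plexus, 3 were higher and 1 lower in cerebellum, where Ttr stood at -1.94, and 3 higher and 2 lower in whole brain, where Igf2 stood at -1.70. Of 8 forebrain markers, 2 were higher in cerebellum and 5 lower, and 2 were higher in whole brain and 3 lower. Of the 3 GABA neuron genes, 1 was higher and 1 lower in cerebellum, and 1 higher and 2 lower in whole brain. Each gene is counted by 1 probe, and for Gad2 that was A_51_P495462 (-1.87 in whole brain against the regions). The other Gad2 probe (A_51_P452977) stood at 1.38 in whole brain and at 1.25, 1.42, 1.36 and 0.72 from olfactory bulb to cerebellum. The part of all these markers in the Hox differences was not tested.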

How the data were processed

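Sorted cells (Cy5) and reference (Cy3) were hybridised on 16 2-colour Agilent arrays, 1 per slide. The deposited scanner files give spot and background intensity and a log10 ratio, made by the authors with Agilent Feature Extraction 8.1.1.1, per the file headers. The deposited value table holds the same log10 ratio to within 0.005. The number of arrays limits the precision.

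Mean signals were background-corrected (normexp, offset 50) and normalized by loess within arrays in limma 3.58.1 (R 4.3.3), with control and outlier spots at weight 0. Log2 ratios were computed from the deposited intensity values. A model of 5 group means (11 residual degrees of freedom) was fitted to 39226 probes, and limma's p-values were adjusted over all of them by Benjamini-Hochberg. Another 1947 probes failed the filter on dim probes. Scripts were tested on simulated data. Alternatives were other background corrections, scalings, filters and probe choices, the sorted channel alone, a replicate block, the regional arrays alone, and each array left out.

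The members and gene lists (cofactors, regulators, Polycomb genes, neighbours, other homeobox genes, and markers of other cells) were chosen with earlier results of these data known; the GABA neuron genes were added after values were seen. The naming rule took, beyond 10 calls, the 5 highest and 5 lowest called probes with the same direction on every array. Other Hox probes are named where a group or probe pair is described, chosen after their values were seen. Values of some genes, 1 Hox gene included, are not reported here, and counts include them.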

Additional observations from a re-analysis of the deposited data

Results flagged for a closer look

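Over the 4 whole brain arrays, 3 of 44 Hox probes had 1 array apart from the rest by Dixon's criterion (0.829 for 4 samples), which chance meets in about 1 in 20 groups. Hoxb3 (A_51_P460643) stood at 0.28 on whole brain replicate 4, while the others lay from -0.14 to -0.09. Hoxb5 stood at -0.07 on replicate 2, with the others from 0.05 to 0.06. Hoxc6 stood at 0.04 on replicate 4, with the others from 0.37 to 0.43.

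By limma's test of the difference, groups differed for 22 Hox probes among the 4 regions (46.8% of those tested, beside 55.9% of all probes). They differed for 23 between cerebellum and forebrain (48.9% beside 40.5%) and for 24 between whole brain and the regions (51.1% beside 62.7%).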

How the results depend on the processing

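Of the counts of called Hox probes, those that moved by over 1.5 times were olfactory bulb against reference with median centring (36) and cerebellum against forebrain with the scanner log ratio (13), with the sorted channel alone (12) and with 1 array left out (14 to 22). Detection in the reference was 14 with the 99th percentile of negative controls and 47 on any array. The causes were not tested. Leaving out 1 array gave 28 to 30 for whole brain, 18 to 21 for olfactory bulb, 24 to 27 for cortex, 29 to 30 for striatum and 26 to 28 for cerebellum against reference, 18 to 23 among regions and 19 to 27 for whole brain against regions.

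Single probes turned direction in 20 of 2763 recomputed values, and 252 lost their call. With median centring, whole brain gave Hoxa6 0.42, Hoxb1 -0.38, Hoxb2 (A_52_P15300) -0.23, Hoxb3 (A_52_P312467) -0.44 and Hoxb6 (A_51_P232207) -0.16. Olfactory bulb gave Hoxa4 0.04 and Hoxa6 0.26, and cortex Hoxc13 -0.09. Striatum gave Hoxa2 0.00, Hoxa6 0.09 and Hoxb4 0.09, and cerebellum Hoxa4 0.05, Hoxb4 0.04, Hoxb8 (A_51_P402686) -0.17 and Hoxc13 -0.01. The scanner log ratio gave Hoxa6 0.06 in whole brain and Hoxb3 (A_52_P312467) 0.00 in striatum. The sorted channel alone gave Hoxa7 -0.15 for whole brain against regions, and Hoxd4 -0.01 and Hoxd10 -0.04 for cerebellum against forebrain.

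Replicate numbers were not used to pair samples in the main model. Deviations of same-numbered regional arrays correlated at -0.119 to 0.247 (median 0.026, 5 of 18 pairs over 0.1). Those of differently numbered arrays correlated at -0.242 to 0.240 (median -0.020, 5 of 36 over 0.1). Such correlations cannot tell whether regions share animals. With the replicate number as a block the counts were 23 for cerebellum against forebrain and 23 among regions. Probes near background limit what can be read from small ratios.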
